A study of Homo sapiens with 10 samples.

Results

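The genes described here are 10 regulators of mTORC1 and its amino acid input, namely SESN1, SESN2, SESN3, DDIT4, DEPTOR, CASTOR1, RRAGD, FLCN, FNIP1 and FNIP2. They were chosen by name from the 20289 genes of the deposited expression table, with results of these data in view, so the levels and calls below describe them and are no independent evidence of a direction. All 10 were found in the table, and 9 of them passed the filter of at least 1 FPKM in at least 2 libraries that 13077 genes passed. SESN3 did not pass it. RNA was sequenced from PANC-1 and CFPAC-1, both established human lines of pancreatic ductal adenocarcinoma, after 24 h in culture with imidazole ketone erastin (IKE) or with the solvent DMSO at 0.1%. There were 4 libraries of PANC-1 given 1 µM IKE, 2 of PANC-1 given DMSO, 2 of CFPAC-1 given 10 µM IKE and 2 of CFPAC-1 given DMSO. IKE, a drug-like form of erastin, inhibits the cystine and glutamate antiporter system xc- and is used to set off ferroptosis, a death by iron-dependent lipid peroxidation whose regulators in this cancer the study set out to find. Only living cells were sequenced, since the dead ones and their debris had been cleared away, so a shift within cells and a shift in which cells lived cannot be told apart. Each line stands for itself and not for a class of tumour, and the dose differed between the lines, so that line and dose cannot be told apart in any difference of their IKE responses.

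mTORC1 is the kinase complex that drives protein synthesis and growth at the lysosome when amino acids and energy suffice. Sestrins hold it back by binding GATOR2 when leucine is short, CASTOR1 does so when arginine is short, DDIT4 (REDD1) acts through the TSC complex under stress, and DEPTOR binds mTOR itself. RRAGD is one of the Rag GTPases that carry the amino acid signal to mTORC1, and folliculin (FLCN) with FNIP1 or FNIP2 is the activating protein for RRAGC and RRAGD, so these genes are parts of the sensing relay rather than plain inhibitors. SESN2 and DDIT4 are known targets of ATF4, which switches on genes of amino acid supply when amino acids run short, SESN3 is a FOXO target and RRAGD a target of the TFEB and TFE3 family.

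Upstream sequences are shown for 3 genes. SESN2 and DDIT4 were taken because their mRNA rose in CFPAC-1 with IKE. FNIP1 was taken because it alone, among the 8 members whose RefSeq windows were searched, held the E-box CACGTG. That E-box is the core of the TFEB and TFE3 element. Each stretch runs from 250 to 51 bases before the RefSeq start (GRCh38.p14), 200 bases 5′ to 3′ in the direction of the gene. Capitals mark CACGTG, the shorter ACGTG that is the core of the hypoxia element, and CCAAT, each on either strand (CCAAT reads ATTGG on the other strand).
SESN2, chr1:28259268-28259467, plus strand: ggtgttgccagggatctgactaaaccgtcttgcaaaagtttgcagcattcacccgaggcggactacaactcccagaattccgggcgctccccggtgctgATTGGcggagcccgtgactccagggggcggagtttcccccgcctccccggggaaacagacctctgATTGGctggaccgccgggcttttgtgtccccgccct
DDIT4, chr10:72273674-72273873, plus strand: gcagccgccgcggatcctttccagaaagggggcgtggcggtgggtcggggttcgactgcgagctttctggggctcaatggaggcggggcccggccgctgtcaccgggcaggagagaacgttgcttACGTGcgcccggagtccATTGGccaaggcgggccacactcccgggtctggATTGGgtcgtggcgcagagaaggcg
FNIP1, chr5:131797068-131797267, minus strand: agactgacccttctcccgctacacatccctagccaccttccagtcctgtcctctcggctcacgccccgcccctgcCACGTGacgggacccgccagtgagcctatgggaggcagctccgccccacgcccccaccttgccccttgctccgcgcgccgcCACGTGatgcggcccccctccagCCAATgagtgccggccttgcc

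RefSeq windows of 250 bases before to 50 after the start were searched for 8 of the 10 members, 11 windows in all. None was at hand for RRAGD. Any member window on chromosome 8, where DEPTOR lies, was left out of the search, so DEPTOR was not searched. The shares of all windows given below still count that chromosome. TGATGNAA, a form of the C/EBP-ATF response element that ATF4 binds, was in 0 of the 11 windows, against 3.62% of the 35116 windows of all genes. CACGTG was in 1 of the 11, against 7.26% of all windows, and began 175 and 94 bases before the FNIP1 start. ACGTG, which every CACGTG contains, was in the windows of DDIT4, FNIP1 and FNIP2, against 21.4% of all windows, and CCAAT was in 8 of the 11, against 34.6%. ACGTG began 125 bases before the DDIT4 start. The CCAAT box lay 2 times in the SESN2 window and 2 times in the DDIT4 window, all in reverse. ACGTG and CCAAT were searched after the values had been seen. A match is a run of letters and not a shown binding site, and a motif missing here can lie elsewhere in the gene.

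Values are FPKM, fragments per kilobase of transcript scaled to the mapped total of the library, and differences are of log2(FPKM + 1), which understates the change of low genes. Read depth is unknown, since the table holds no counts. The summed FPKM of a library ran from 405937 to 472665, and 11604 to 12248 genes reached 1 FPKM. Mitochondrially encoded genes took 2.65% to 5.27% of the total, the most in PANC-1 IKE replicate 3. Of 8 epithelial and ductal markers, 7 were at 1 FPKM or more in each group (summed FPKM 4889 to 5719 in PANC-1 with IKE, 5135 to 5681 in PANC-1 with DMSO, 6006 to 6097 in CFPAC-1 with IKE and 6547 to 6894 in CFPAC-1 with DMSO). The marker not at that level was CFTR, and KRT8, KRT18 and KRT19 made up most of the sums. With DMSO, EPCAM averaged 9.50 FPKM in PANC-1 and 157 FPKM in CFPAC-1, CDH1 14.1 FPKM in PANC-1 and 92.1 FPKM in CFPAC-1, and KRT7 4.97 FPKM in PANC-1 and 296 FPKM in CFPAC-1. Acinar and endocrine markers summed to at most 0.27 and 0.05 FPKM. Lists of other cell types differed between the lines. Mesenchymal markers, 4 of 4 at 1 FPKM or more in each group, summed to 1936 to 2109 FPKM in PANC-1 and 601 to 689 FPKM in CFPAC-1. VIM made up most of that sum (with DMSO, 1996 FPKM in PANC-1 and 550 FPKM in CFPAC-1), while CDH2 averaged 14.5 FPKM in PANC-1 and 40.7 FPKM in CFPAC-1, and FN1 1.03 FPKM in PANC-1 and 23.5 FPKM in CFPAC-1. Immune markers summed to 24.0 to 32.6 FPKM in PANC-1, with 1 of 5 at 1 FPKM or more, and 65.1 to 69.6 FPKM in CFPAC-1, with 2 of 5. Endothelial markers summed to 0.08 to 0.38 FPKM in PANC-1, with 0 of 3 at 1 FPKM or more, and 18.5 to 21.3 FPKM in CFPAC-1, with 1 of 3 and CDH5 at 0. Fibroblast markers summed to 18.2 to 25.2 FPKM in PANC-1 and 4.41 to 6.54 FPKM in CFPAC-1, with 1 of 5 at 1 FPKM or more. Their part in the differences between the lines was not tested.

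The 3 sestrins are separate genes of 1 family, with SESN1 on the minus strand at chr6:108986437-109094819, SESN2 on the plus strand at chr1:28259527-28282491 and SESN3 on the minus strand at chr11:95165513-95232541 (GRCh38, GENCODE 29). SESN2 lay higher with IKE in both lines and was called in CFPAC-1. SESN2 had 9.54, 9.69, 6.90 and 8.94 FPKM in PANC-1 with IKE, against 6.14 and 6.03 FPKM in PANC-1 with DMSO. It had 6.13 and 6.39 FPKM in CFPAC-1 with IKE, against 2.94 and 3.11 FPKM in CFPAC-1 with DMSO. In both lines every IKE library lay above every DMSO library, and PANC-1 IKE replicate 3 was the lowest of its group. The share of all genes tested whose groups separate like this was not counted. Such separations, here and below, are therefore descriptions only. SESN2 rose in CFPAC-1, to 2.07 times the DMSO mean in FPKM, with a log2 difference of 0.85 ± 0.14 (SE, limma, adjusted p = 0.0105 over all genes tested). In PANC-1 the log2 difference was 0.45 ± 0.12 (SE, 95% interval 0.19 to 0.71) and missed the threshold (adjusted p = 0.0744, limma). Without PANC-1 IKE replicate 3, the library with the most mitochondrial RNA, that difference was 0.55 (adjusted p = 0.0119, limma), and the part of that RNA in the value was not tested. The CFPAC-1 call was lost when any 1 of the 4 CFPAC-1 libraries was left out (log2 difference 0.82 to 0.88, adjusted p = 0.0652 to 0.098, limma). The response in PANC-1 minus that in CFPAC-1 was -0.40 (95% interval -0.80 to 0.00, adjusted p = 0.403, limma), so a difference between the lines was not shown.

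SESN1 differed between the lines and was not called with IKE. It had 5.54, 4.83, 5.14 and 5.12 FPKM in PANC-1 with IKE, against 5.48 and 5.21 FPKM in PANC-1 with DMSO. CFPAC-1 held 1.42 and 1.30 FPKM with IKE, against 1.74 and 1.71 FPKM with DMSO. All 6 PANC-1 libraries lay above all 4 CFPAC-1 libraries, and within CFPAC-1 the IKE libraries lay below the DMSO libraries. Neither IKE difference passed the test (log2 -0.04, adjusted p = 0.852 in PANC-1 and log2 -0.21, adjusted p = 0.395 in CFPAC-1, limma). SESN3, the FOXO-linked sestrin, was the lowest of the 10 genes, with 0.74, 0.48, 0.45 and 0.24 FPKM in PANC-1 with IKE, against 0.49 and 0.51 FPKM in PANC-1 with DMSO. In CFPAC-1 it had 0.33 and 0.64 FPKM with IKE, against 0.31 and 0.34 FPKM with DMSO. The ranges of groups next to each other in mean overlapped, and the gene was not tested.

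Since FPKM is scaled to length, the sestrins can be added. Together they made 14.4 ± 1.42 FPKM in PANC-1 with IKE (SD, n = 4) and 11.9 ± 0.26 FPKM in PANC-1 with DMSO (SD, n = 2). In CFPAC-1 the sum was 8.11 ± 0.32 FPKM with IKE and 5.08 ± 0.12 FPKM with DMSO (SD, n = 2 each). SESN2 made up 55.2% to 64.6% of that sum in PANC-1 with IKE and 50.7% to 51.3% in PANC-1 with DMSO. It made up 76.7% to 77.8% in CFPAC-1 with IKE and 58.9% to 60.3% in CFPAC-1 with DMSO. The SESN2 share in each of the 6 IKE libraries was thus above that in the DMSO libraries of its line, and SESN2 was the most abundant sestrin in all 10.

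**Figure D1:**
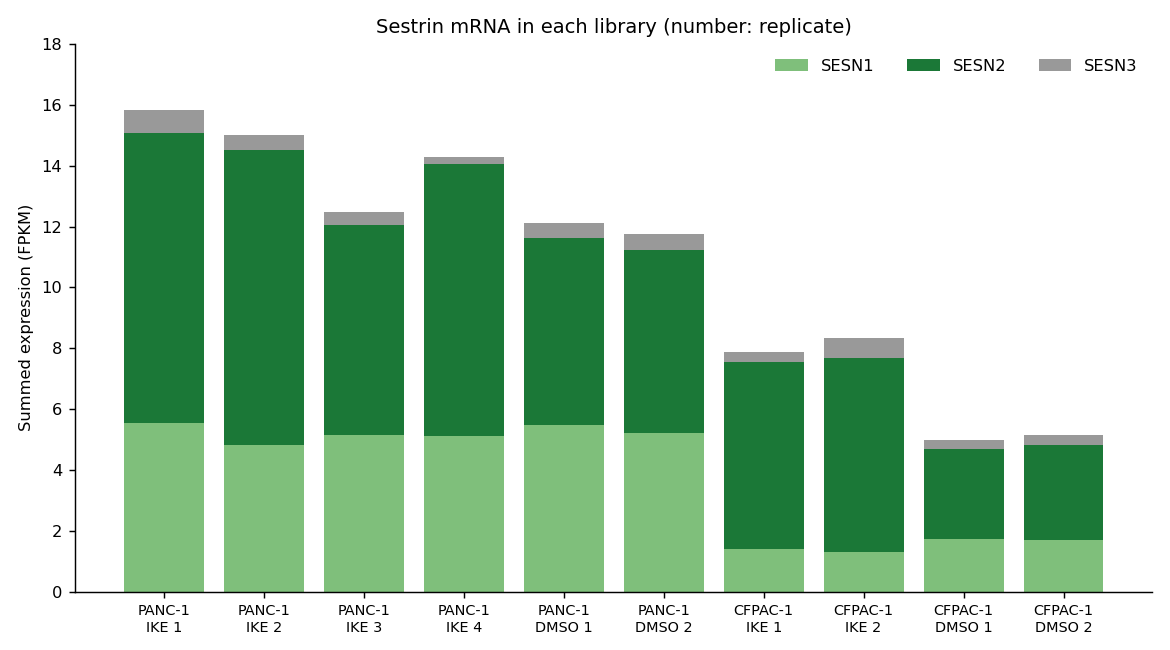
Stacked bars show SESN1, SESN2 and SESN3 in FPKM in each of the 10 libraries, with PANC-1 on the left. The dark SESN2 segment is the tallest in every library and the SESN3 segment stays under 1 FPKM.

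DDIT4, the stress-induced activator of the TSC complex, (chr10:72273920-72276036, plus strand) was the member whose response differed most between the lines. It was the most abundant of the 10 genes in PANC-1 with DMSO and in all CFPAC-1 libraries, while FNIP1 lay above it in 3 of the 4 PANC-1 IKE libraries. It had 21.9, 26.5, 19.2 and 20.0 FPKM in PANC-1 with IKE, against 31.7 and 29.5 FPKM in PANC-1 with DMSO. It had 90.7 and 94.8 FPKM in CFPAC-1 with IKE, against 46.0 and 49.6 FPKM in CFPAC-1 with DMSO. The groups did not overlap in either line, with all IKE libraries below DMSO in PANC-1 and all above it in CFPAC-1. DDIT4 rose in CFPAC-1, to 1.94 times the DMSO mean, with a log2 difference of 0.94 ± 0.12 (SE, limma, adjusted p = 0.0023). It fell in PANC-1, to 0.716 times the DMSO mean, with a log2 difference of -0.47 ± 0.11 (SE, limma, adjusted p = 0.0455). The fall was close to the threshold and, among the libraries left out in turn, the call held only without PANC-1 IKE replicate 2 and was lost without each of the others (log2 -0.53 to -0.42, adjusted p = 0.0707 to 0.314, limma). The difference of the responses, PANC-1 minus CFPAC-1, was -1.42 ± 0.16 (SE, 95% interval -1.78 to -1.06, adjusted p = 0.0039, limma). An antisense gene, DDIT4-AS1, covers 41.2% of the exonic bases of DDIT4, and the sources used here do not say whether reads were counted by strand, so part of this value could come from the other strand. The same limit holds to a lesser degree for DEPTOR, SESN1 and SESN3. Genes on the other strand cover 9.61%, 7.09% and 0.88% of their exonic bases.

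DEPTOR (chr8:119873717-120050913, plus strand), the inhibitor that binds mTOR, was lower in PANC-1 with IKE. It had 3.37, 3.25, 3.41 and 3.40 FPKM in PANC-1 with IKE, against 4.68 and 5.01 FPKM in PANC-1 with DMSO. CFPAC-1 had 23.2 and 22.3 FPKM with IKE, against 23.9 and 25.3 FPKM with DMSO. The 4 PANC-1 IKE libraries lay close together and below both DMSO libraries, and in CFPAC-1 the IKE libraries also lay below DMSO, by less. DEPTOR fell in PANC-1, to 0.693 times the DMSO mean, with a log2 difference of -0.42 ± 0.08 (SE, limma, adjusted p = 0.0171). The call was lost without either PANC-1 DMSO library (adjusted p = 0.122 without replicate 1 and 0.135 without replicate 2, limma). In CFPAC-1 the log2 difference was -0.11 (adjusted p = 0.674, limma), and the difference of the responses was -0.32 (95% interval -0.57 to -0.06, adjusted p = 0.304, limma).

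CASTOR1, RRAGD, FLCN, FNIP1 and FNIP2 gave no call with IKE in either line. CASTOR1, the arginine sensor, ran from 1.37 to 2.84 FPKM in PANC-1 with IKE, against 1.93 and 2.07 FPKM in PANC-1 with DMSO, and from 2.99 to 3.72 FPKM in CFPAC-1 with IKE, against 2.58 and 3.08 FPKM in CFPAC-1 with DMSO. RRAGD had 6.10 and 2.88 FPKM in CFPAC-1 with IKE, against 4.80 and 4.40 FPKM in CFPAC-1 with DMSO. The IKE replicates of RRAGD lay on either side of the DMSO replicates, which left the widest interval of the 9 genes tested in CFPAC-1. FLCN had 3.30 and 3.72 FPKM in CFPAC-1 with IKE, against 2.00 and 2.74 FPKM in CFPAC-1 with DMSO, a log2 difference of 0.43 (95% interval 0.14 to 0.71, adjusted p = 0.158, limma). FNIP1 had 16.3 and 15.9 FPKM in CFPAC-1 with IKE, against 13.6 and 13.3 FPKM in CFPAC-1 with DMSO, a log2 difference of 0.25 (adjusted p = 0.402, limma). For FLCN and FNIP1 the CFPAC-1 groups did not overlap, and the differences did not pass the test. How many of all genes separate in this way was not counted, so nothing is read from it. FNIP2, the other partner of folliculin, differed by 0.03 in PANC-1 (95% interval -0.19 to 0.25) and by 0.02 in CFPAC-1 (95% interval -0.24 to 0.27) on the log2 scale. In PANC-1 RRAGD had 8.42 to 10.6 FPKM with IKE, against 7.37 and 9.17 FPKM with DMSO, and FLCN had 9.54 to 11.6 FPKM with IKE, against 9.68 and 10.5 FPKM with DMSO. FNIP1 had 17.2 to 23.5 FPKM in PANC-1 with IKE, against 19.3 and 19.6 FPKM with DMSO, and FNIP2 6.62 to 8.36 FPKM with IKE, against 6.88 and 7.83 FPKM with DMSO. The ranges of all 5 genes overlapped between IKE and DMSO in PANC-1. CASTOR1 shares 46.0% of its exonic bases with AC004997.1 on the same strand, which had 0.23 to 0.88 FPKM over the 10 libraries, so its value is uncertain, as to a lesser degree is that of FLCN, which shares 11.9% with AC055811.2. FNIP1 shares 3.54% with AC008695.1 on the same strand. AC008695.1 had 3.27 to 4.38 FPKM in PANC-1 with IKE and 2.07 to 2.64 FPKM with DMSO. In CFPAC-1 it had 2.01 to 2.82 FPKM with IKE and 1.84 to 3.71 FPKM with DMSO.

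**Figure D2:**
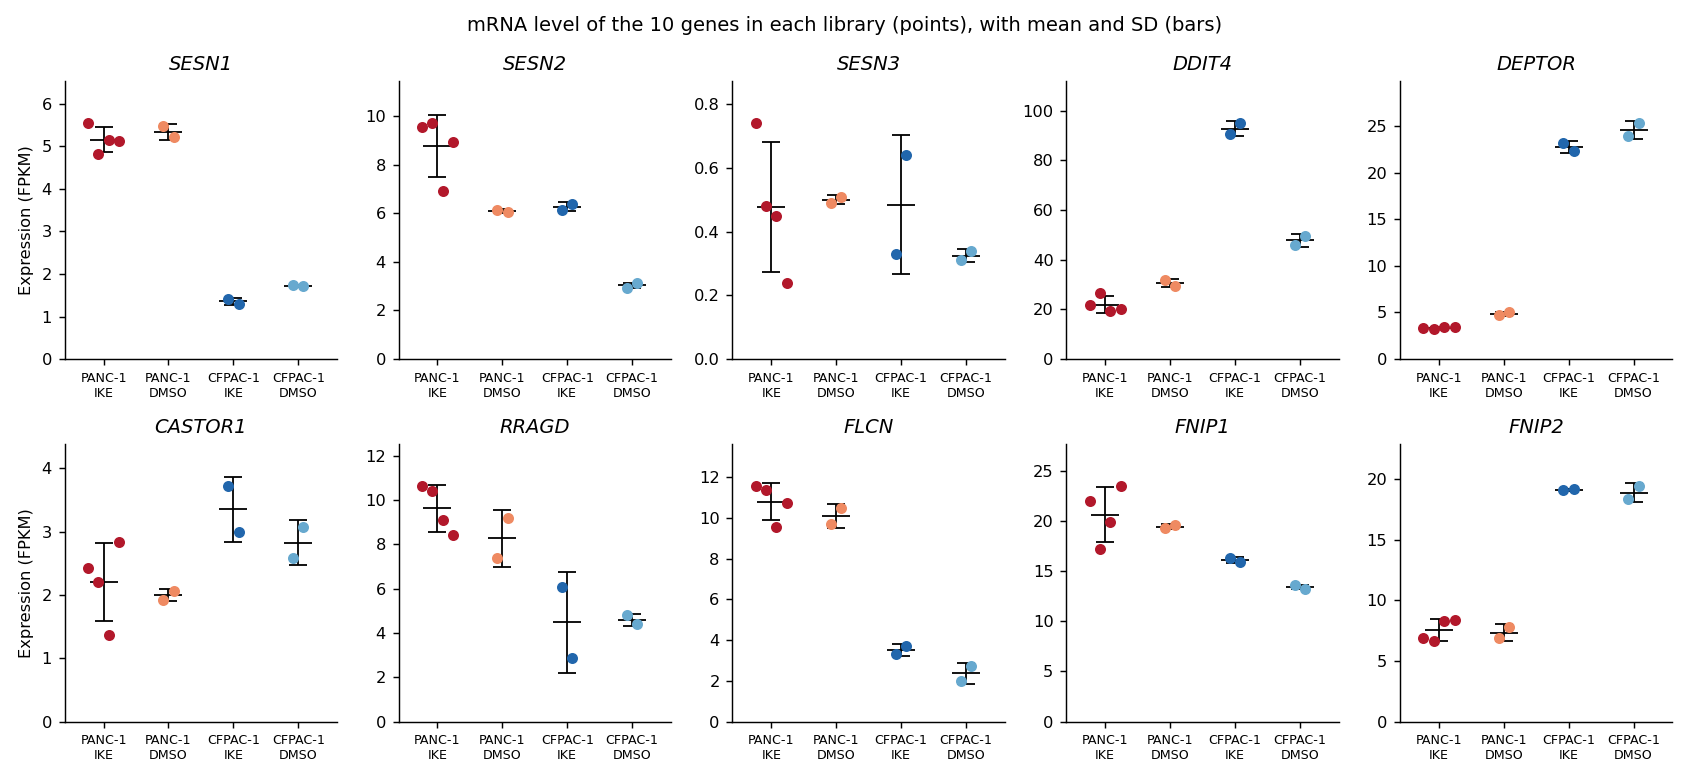
Each panel shows 1 gene, with FPKM from 0 on the vertical axis, a point per library, and bars for the group mean and SD (n = 4 for PANC-1 IKE and 2 for the other groups). SESN2 lies higher with IKE in both lines, while DDIT4 is lower with IKE in PANC-1 and higher with IKE in CFPAC-1.

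By count, 0 members rose and 2 fell in PANC-1 with IKE, where 1.21% of all genes tested rose and 1.17% fell. In CFPAC-1, 2 members rose and 0 fell, where 0.864% of all genes tested rose and 0.459% fell. At an unadjusted p under 0.05, 1 member was higher and 2 lower in PANC-1, beside 8.37% and 9.25% of all genes tested (limma). In CFPAC-1, 3 members were higher and 0 lower at that level, beside 6.50% and 7.10% of all genes tested, and FLCN was the one added (limma). The median log2 difference of the 9 members was 0.07 in PANC-1, against -0.01 for all genes tested, and 0.18 in CFPAC-1, against 0.00. For the difference of the responses, 0 members had a higher and 1 a lower response in PANC-1, where 0.107% and 0.229% of all genes tested did. Since the members were picked with these comparisons in view, nothing is read from these shares. Both IKE comparisons have their own DMSO libraries, while the difference uses all of them.

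**Figure D3:**
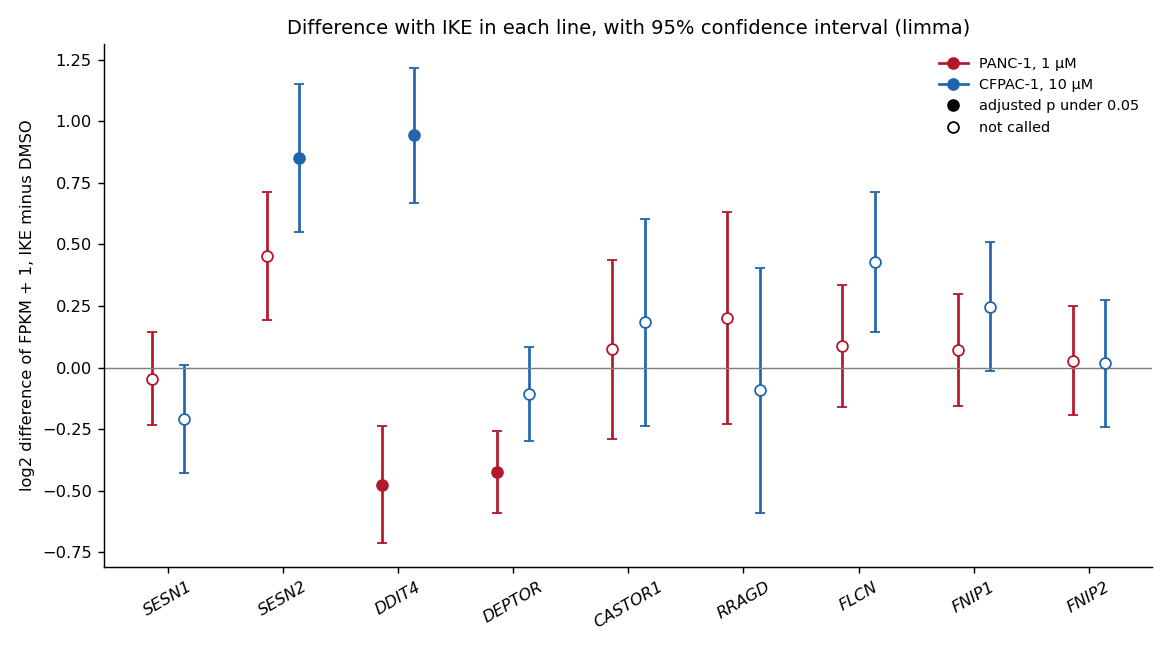
The vertical axis gives the log2 difference of FPKM + 1, IKE minus DMSO, with its 95% interval from limma, for the 9 members tested, PANC-1 (1 µM) to the left of CFPAC-1 (10 µM) for each gene. Filled points have an adjusted p under 0.05, which holds for DDIT4 and DEPTOR in PANC-1 and for SESN2 and DDIT4 in CFPAC-1.

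Most of the members differed between the lines without drug. With DMSO, 5 of the 9 members tested were higher and 3 lower in PANC-1 than in CFPAC-1, where 43.4% of all genes tested were higher and 35.2% lower, so a call was common. FLCN averaged 10.1 ± 0.58 FPKM in PANC-1 and 2.37 ± 0.52 FPKM in CFPAC-1 (SD, n = 2 each), a 4.26-fold difference (limma, adjusted p = 1.8e-07). SESN1 averaged 5.35 ± 0.19 FPKM in PANC-1 and 1.73 ± 0.021 FPKM in CFPAC-1, a 3.10-fold difference (limma, adjusted p = 3.7e-07). SESN2 was 2.01-fold, RRAGD 1.80-fold and FNIP1 1.45-fold higher in PANC-1 (limma, adjusted p = 0.00018, 0.012 and 0.0023). The RRAGD call was lost without CFPAC-1 DMSO replicate 2 (adjusted p = 0.0616) or without PANC-1 DMSO replicate 2 (adjusted p = 0.0819, limma).

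DEPTOR was lowest in PANC-1 relative to CFPAC-1, at 4.85 ± 0.23 FPKM in PANC-1 and 24.6 ± 0.98 FPKM in CFPAC-1 (SD, n = 2 each), or 0.197 times the level (limma, adjusted p = 8.8e-10). FNIP2 had 6.88 and 7.83 FPKM in PANC-1, against 18.4 and 19.4 FPKM in CFPAC-1, or 0.389 times the level (limma, adjusted p = 1.3e-06). DDIT4 was at 0.64 times the CFPAC-1 level (limma, adjusted p = 0.00065). CASTOR1 differed by -0.35 on the log2 scale and was not called (adjusted p = 0.113, limma). The FNIP partners of folliculin thus ran opposite ways, FNIP1 higher and FNIP2 lower in PANC-1. With DMSO, FNIP1 had 19.3 and 19.6 FPKM in PANC-1, above FNIP2 in that line, while in CFPAC-1 it had 13.6 and 13.3 FPKM, below FNIP2. FPKM scaled by median ratios moved the median of all genes in this comparison to -0.01 on the log2 scale, against 0.12 as deposited. Taken relative to the deposited median, the log2 differences were 1.61 for FLCN, 1.10 for SESN1, 0.70 for SESN2, 0.61 for RRAGD and 0.39 for FNIP1. On the same footing they were -2.25 for DEPTOR, -1.37 for FNIP2, -0.74 for DDIT4 and -0.47 for CASTOR1. CASTOR1 was called lower in PANC-1 under that scaling (adjusted p = 0.0481, limma), and the 8 calls above kept their direction. On the deposited FPKM, CASTOR1 was also called with replicate number as a term (adjusted p = 0.0378, limma). So it was with PANC-1 IKE replicates 1 and 2 alone (adjusted p = 0.0278) or without PANC-1 IKE replicate 3 (adjusted p = 0.0317, limma).

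Over the 4 groups, the mean level of DDIT4 was highest in CFPAC-1 with IKE, then CFPAC-1 with DMSO, PANC-1 with DMSO and PANC-1 with IKE, with no overlap between neighbours. DEPTOR likewise had no overlap between neighbours, with the CFPAC-1 groups above the PANC-1 groups and each IKE group below its DMSO group. SESN2 was highest in PANC-1 with IKE and lowest in CFPAC-1 with DMSO, and the intermediate groups, CFPAC-1 given IKE and PANC-1 given DMSO, overlapped. FLCN and FNIP1 ran from the PANC-1 groups, which overlapped, to CFPAC-1 with IKE and then CFPAC-1 with DMSO. RRAGD and FNIP2 separated the lines with overlap inside each, RRAGD higher and FNIP2 lower in PANC-1. CASTOR1 overlapped between all neighbouring groups.

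Regulators with known links to these genes were read in the same libraries. ATF4 had 118, 118, 105 and 123 FPKM in PANC-1 with IKE, against 99.7 and 98.8 FPKM in PANC-1 with DMSO. It had 232 and 228 FPKM in CFPAC-1 with IKE, against 91.4 and 94.0 FPKM in CFPAC-1 with DMSO. ATF4 rose in CFPAC-1 (log2 1.30 ± 0.07 SE, adjusted p = 3e-06, limma) and missed the threshold in PANC-1 (log2 0.22 ± 0.06 SE, adjusted p = 0.0951, limma). Its response was lower in PANC-1 than in CFPAC-1 by 1.08 on the log2 scale (a difference of -1.08, 95% interval -1.29 to -0.87, adjusted p = 0.0015, limma). TRIB3, a pseudokinase and ATF4 target, rose in both lines, by 0.69 in PANC-1 (adjusted p = 0.0053) and by 1.48 in CFPAC-1 (adjusted p = 3.9e-05) on the log2 scale (limma). The PANC-1 call of TRIB3 was lost without PANC-1 DMSO replicate 1 (adjusted p = 0.0778, limma). The difference of the TRIB3 responses, PANC-1 minus CFPAC-1, was -0.80 (adjusted p = 0.0533, limma), and it was called under 5 of the alternatives (adjusted p = 0.0056 to 0.0487). DDIT3, another factor of this route, had 22.8 to 27.1 FPKM in PANC-1 with IKE, against 17.9 and 20.6 FPKM in PANC-1 with DMSO, and was not called (log2 0.40, adjusted p = 0.0617, limma). ATF3 had 11.4, 5.68, 4.93 and 9.60 FPKM in PANC-1 with IKE, against 2.71 FPKM in both PANC-1 DMSO libraries, and just missed the threshold (log2 1.20 ± 0.28 SE, adjusted p = 0.0509, limma), though it was called under 5 alternatives (adjusted p = 0.0264 to 0.0469). Without PANC-1 IKE replicate 3, ATF4 (log2 0.27, adjusted p = 0.0293) and DDIT3 (log2 0.45, adjusted p = 0.0376) were called in PANC-1 as well (limma). In CFPAC-1 neither was called (DDIT3 log2 0.33, adjusted p = 0.218, and ATF3 log2 0.34, adjusted p = 0.728, limma). In PANC-1, then, DDIT4 was called lower and TRIB3 higher with IKE, and the DDIT4 call was lost with most single libraries left out. SESN2, DDIT3 and ATF3 missed the threshold there, though each lay higher in every IKE library than in the DMSO libraries.

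**Figure D4:**
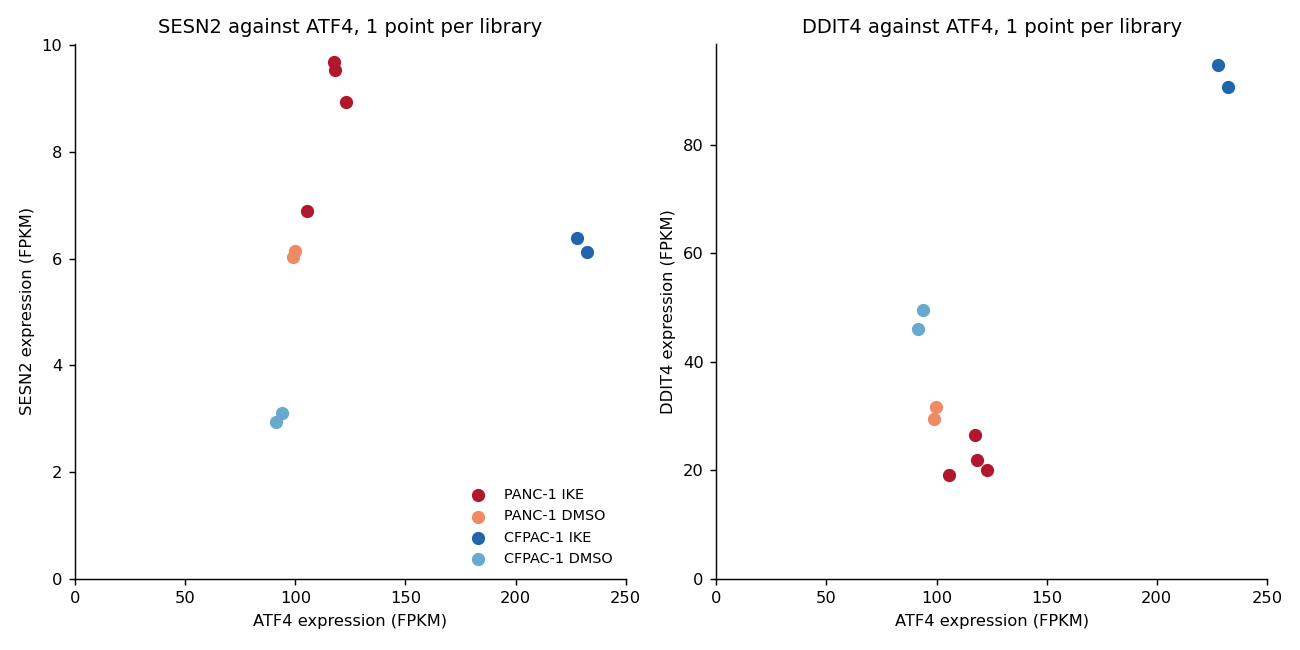
Each point is 1 library, with ATF4 in FPKM on the horizontal axis and SESN2 (left) or DDIT4 (right) in FPKM on the vertical axis. The CFPAC-1 IKE libraries lie far to the right on both, and the 4 PANC-1 IKE libraries lie at 105 to 123 FPKM of ATF4 with SESN2 above and DDIT4 below the PANC-1 DMSO libraries.

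CDKN1A, MDM2, FOXO1, FOXO3 and HIF1A gave no call with IKE in either line by limma, except CDKN1A in CFPAC-1 under 1 alternative. At an unadjusted p under 0.05, CDKN1A and FOXO3 were higher in CFPAC-1. CDKN1A, which encodes the cell cycle inhibitor p21, differed by -0.09 in PANC-1 (adjusted p = 0.73) and by 0.47 in CFPAC-1 (adjusted p = 0.0823, and 0.048 with quantile normalization), and HIF1A, a known inducer of DDIT4, by -0.12 in PANC-1 (adjusted p = 0.352) and by -0.11 in CFPAC-1 (adjusted p = 0.574) on the log2 scale (limma). With DMSO, CDKN1A averaged 16.3 FPKM in PANC-1 and 4.81 FPKM in CFPAC-1, and MDM2 averaged 49.8 FPKM in PANC-1 and 23.9 FPKM in CFPAC-1, both higher in PANC-1 along with SESN1 (log2 1.57 and 1.03, adjusted p = 1.7e-07 and 4.2e-07, limma). HIF1A averaged 115 FPKM in PANC-1 and 321 FPKM in CFPAC-1, lower in PANC-1 along with DDIT4 (log2 -1.48, adjusted p = 4.7e-09, limma). FOXO1 averaged 0.74 FPKM in PANC-1 and 4.15 FPKM in CFPAC-1 (log2 -1.56, adjusted p = 8.8e-08, limma). FOXO3 averaged 29.2 FPKM in PANC-1 and 24.5 FPKM in CFPAC-1 (log2 0.24, adjusted p = 0.0123, limma). The FOXO3 call ended with median-ratio scaling (adjusted p = 0.2) and with quantile normalization (adjusted p = 0.094, limma). It was also lost without CFPAC-1 DMSO replicate 2 or PANC-1 DMSO replicate 1 (log2 0.23 each). TFE3 was 21.8 FPKM in PANC-1 and 12.3 FPKM in CFPAC-1 (log2 0.78, adjusted p = 1.7e-06, limma), while TFEB, at 2.24 FPKM in PANC-1 and 2.81 FPKM in CFPAC-1, was not called (adjusted p = 0.0662, limma) and was called lower in PANC-1 under median-ratio scaling (adjusted p = 0.0145). With IKE neither TFEB nor TFE3 was called in either line (limma). TFE3 differed by 0.09 in PANC-1 (adjusted p = 0.534) and 0.29 in CFPAC-1 (adjusted p = 0.0995) on the log2 scale (limma). TFEB differed by -0.21 in PANC-1 (adjusted p = 0.27) and -0.17 in CFPAC-1 (adjusted p = 0.565, limma). The unadjusted p was under 0.05 for TFE3 in CFPAC-1 and for TFEB in PANC-1. These values are set beside the members, and their part in the members' levels was not tested. They are mRNA levels, as are those of ATF4, and the protein and activity of these factors were not measured here.

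The genes most like SESN2 over the 10 libraries were SLC1A5, SLC7A1, SLC3A2, NQO1 and CCNJL, with Pearson's r of 0.98 each among 8163 genes ranked. The measure is log2(FPKM + 1) with the mean of each line removed, and the points share libraries and treatment, so r is given as a description. SLC1A5, SLC7A1 and SLC3A2 are amino acid carriers or carrier subunits at the cell surface, NQO1 is a quinone reductase and CCNJL a cyclin-like gene. The genes most like DDIT4 were CDT1, a replication licensing factor, FZD7, a Wnt receptor, LIPG, a lipase, SCD, a fatty acid desaturase, and TGOLN2, a trans-Golgi protein, with r of 0.96, 0.95, 0.95, 0.95 and 0.94. Likeness by r leaves out the size of a change. With IKE these genes differed by 0.07 (TGOLN2) to 0.52 (LIPG) in CFPAC-1, against 0.94 for DDIT4, on the log2 scale. In PANC-1 they differed by -0.07 (TGOLN2) to -0.41 (LIPG), against -0.47 for DDIT4. By the likeness measure SESN2 and DDIT4 had r of 0.48 with each other. SESN2 had r of 0.91 with ATF4 and 0.97 with TRIB3, and DDIT4 had r of 0.71 with ATF4 and 0.53 with TRIB3. Among the regulators, DDIT4 had its highest r with CDKN1A, at 0.87, and had 0.08 with DDIT3. SESN2 also had r of 0.84 with DDIT3, 0.73 with CDKN1A and -0.81 with HIF1A.

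Among 49 other genes of the pathway, 47 were tested. The 2 not tested were DDIT4L, the paralog of DDIT4, at 0 to 0.38 FPKM, and PRKAG3, listed at 0 in all libraries. In PANC-1, 2 of the 47 rose and 0 fell, and in CFPAC-1, 2 rose and 0 fell, beside 1.21% and 1.17% of all genes tested in PANC-1, and 0.864% and 0.459% in CFPAC-1 (limma). At an unadjusted p under 0.05, 7 were higher and 4 lower in PANC-1, beside 8.37% and 9.25% of all genes tested, and 6 were higher and 4 lower in CFPAC-1, beside 6.50% and 7.10% (limma). Their median log2 difference was 0.05 in PANC-1 and -0.01 in CFPAC-1. EIF4EBP1, which encodes the translation repressor 4E-BP1 and is a known ATF4 target, rose in both lines. It had 28.4, 26.6, 25.6 and 30.8 FPKM in PANC-1 with IKE, against 15.8 and 19.8 FPKM in PANC-1 with DMSO (log2 0.62 ± 0.10 SE, adjusted p = 0.0087, limma). It had 38.3 and 42.0 FPKM in CFPAC-1 with IKE, against 20.4 and 19.4 FPKM in CFPAC-1 with DMSO (log2 0.98 ± 0.11 SE, adjusted p = 0.00087, limma). Every IKE library lay above every DMSO library of its line, and the PANC-1 call was lost without PANC-1 DMSO replicate 1 (adjusted p = 0.145, limma).

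GRB10, an adaptor that mTORC1 phosphorylates and that damps insulin signalling, rose in CFPAC-1, at 8.50 and 8.08 FPKM with IKE, against 4.90 and 4.76 FPKM with DMSO (log2 0.67 ± 0.10 SE, adjusted p = 0.0057, limma). In PANC-1 it had 19.1 to 23.3 FPKM with IKE, against 16.3 and 17.3 FPKM with DMSO, also without overlap, but missed the threshold (log2 0.34, adjusted p = 0.0685, limma) unless PANC-1 IKE replicate 3 was left out (log2 0.39, adjusted p = 0.031, limma). The CFPAC-1 call was lost without CFPAC-1 DMSO replicate 2 (adjusted p = 0.0635) or IKE replicate 1 (adjusted p = 0.0604, limma). SAR1B, a leucine sensor, rose in PANC-1, with 42.1 to 47.4 FPKM with IKE, against 35.3 and 37.9 FPKM with DMSO (log2 0.28 ± 0.07 SE, adjusted p = 0.0471, limma). In CFPAC-1 SAR1B had 48.2 and 44.9 FPKM with IKE, against 54.5 and 56.5 FPKM with DMSO, and was not called (log2 -0.25, adjusted p = 0.157, limma). The SAR1B call in PANC-1 held only without PANC-1 IKE replicate 1 or 2 and was lost without each of the other libraries (adjusted p = 0.0707 to 0.361, limma). In the difference of the responses 0 of the 47 were called by limma, beside the 0.107% and 0.229% of all genes tested that were higher and lower in PANC-1. At an unadjusted p under 0.05, 3 were higher and 2 lower in PANC-1, beside 5.83% and 6.52% of all genes tested. SAR1B was nearest to the threshold, at 0.53 on the log2 scale (adjusted p = 0.0543).

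**Figure D5:**
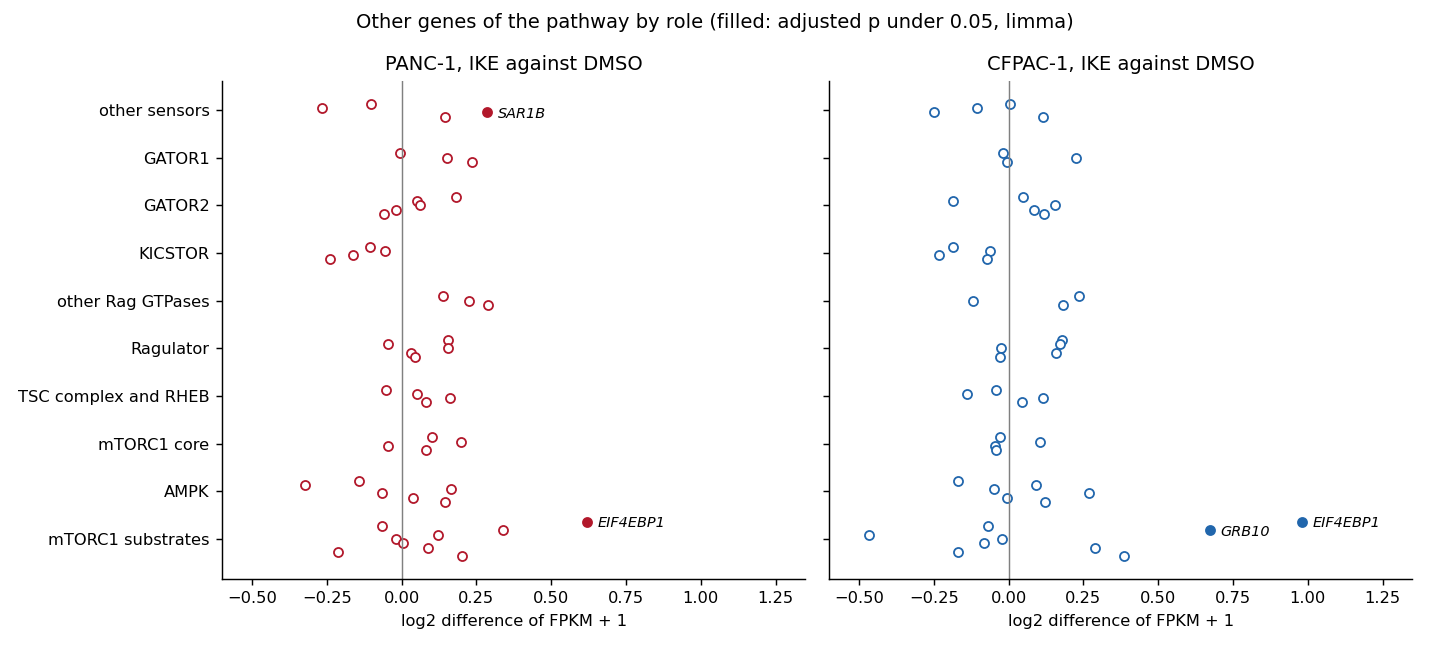
Each point is 1 of the 47 other pathway genes tested, grouped by role, with the log2 difference of FPKM + 1, IKE minus DMSO, on the horizontal axis (PANC-1 left, CFPAC-1 right). The filled and named points, with an adjusted p under 0.05, are SAR1B and EIF4EBP1 in PANC-1 and GRB10 and EIF4EBP1 in CFPAC-1.

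Between the lines with DMSO, 23 of the 47 were higher and 12 lower in PANC-1, beside the 43.4% and 35.2% of all genes tested. Median-ratio scaling gave 20 higher and 14 lower. The mTORC1 core, MTOR, RPTOR, MLST8 and AKT1S1, was higher in PANC-1 in 4 of 4 genes, with a median log2 difference of 0.88, and of 0.76 under median-ratio scaling. The TSC complex with RHEB had 3 of 4 higher (1 of 4 under median-ratio scaling), GATOR2 3 of 5, GATOR1 1 of 3 and KICSTOR 1 of 4, with 0 lower in these groups. Ragulator had 3 higher and 2 lower of 5 (2 and 2 under median-ratio scaling), AMPK 2 higher and 3 lower of 6, and the mTORC1 substrates 4 higher and 3 lower of 9 (4 and 5 under median-ratio scaling). The other amino acid sensors had 1 higher and 3 lower of 4, and the other Rag GTPases 1 higher and 1 lower of 3. SEH1L, a GATOR2 subunit that is also in the nuclear pore, averaged 36.7 FPKM in PANC-1 and 5.37 FPKM in CFPAC-1 (log2 2.57, adjusted p = 2.6e-10, limma). PRKAG2 and PRKAA2, both AMPK subunits, differed by 1.75 and 1.90 on the log2 scale, GRB10 by 1.61 and MIOS, another GATOR2 subunit, by 1.24, all higher in PANC-1 (adjusted p = 2.4e-08, 2.2e-07, 3.3e-08 and 8.9e-08, limma). LAMTOR3, a Ragulator subunit, averaged 12.9 FPKM in PANC-1 and 35.6 FPKM in CFPAC-1 (log2 -1.39, adjusted p = 5.3e-07, limma).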

How the data were processed

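Human cell line RNA-seq of 10 libraries was analysed, grouped by line and treatment as labelled. Total RNA was depleted of rRNA, and the libraries mark strand by uracil digestion of the second strand, per the labels' protocols. The deposited values are FPKM per Ensembl gene, computed by the authors and given to 2 decimals in 20289 rows, with 9 further columns that are empty. The submitters' processing notes list the build GRCh38, StringTie 1.3.4, HISAT2 2.1.0, Bowtie2 2.2.8, fastp 0.18.0 and DESeq2. What each program did, which annotation was used and whether strand entered the counting are points the sources used here do not give. The table has no counts, so depth is unknown and no counting error can be given.

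A gene was tested if 2 or more libraries reached 1 FPKM, which left 13077. Their log2(FPKM + 1) was modelled with limma 3.58.1 (R 4.3.3), 1 mean for each of the groups in a joint model of the 10 libraries, and a prior variance that follows expression level (6 residual and 5.1 prior degrees of freedom). All adjusted p-values and intervals come from this two-sided test, with Benjamini-Hochberg adjustment across the 13077 and a threshold of 0.05. It was checked on simulated data. IKE was compared with DMSO inside each line, these responses were compared between lines, and the lines were compared under DMSO. The replicates are labelled as bioreplicates with no more detail, so p-values measure the spread between these libraries, which may be technical.

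The members, the pathway lists, the tests and the alternatives were chosen with earlier results of these data known. Named are all 10 members, regulators listed for them (1 of which is not reported here), per comparison up to 6 called genes of the pathway lists with the smallest p, and the 5 genes with the highest r to SESN2 and to DDIT4 among those whose mean log2 value reached 3. MTOR, RPTOR, MLST8, AKT1S1, MITF and the untested DDIT4L and PRKAG3 were named after their values were seen. Gene positions and overlaps are from GENCODE 29 (GRCh38), and upstream sequences are from RefSeq (GRCh38.p14), matched by symbol. Alternatives changed the pseudocount (0.1), the filter (none, or 5 FPKM in 2 libraries), the scaling (quantiles or median ratios), the model (replicate number as a term, or each line by itself) or the libraries (PANC-1 IKE limited to replicates 1 and 2, or 1 library of the 10 removed). PANC-1 IKE limited to replicates 3 and 4 was added after the data were seen.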

Additional observations from a re-analysis of the deposited data

Results flagged for a closer look

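The IKE response of DDIT4 differed between the lines, by -1.42 on the log2 scale (PANC-1 minus CFPAC-1, limma, adjusted p = 0.0039 over all genes tested). It was 21.9 ± 3.30 FPKM in PANC-1 with IKE (SD, n = 4) and 30.6 ± 1.58 FPKM in PANC-1 with DMSO (SD, n = 2), and 92.8 ± 2.90 FPKM in CFPAC-1 with IKE and 47.8 ± 2.55 FPKM in CFPAC-1 with DMSO (SD, n = 2 each).

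The response of ATF4 differed between the lines by -1.08 on the log2 scale (limma, adjusted p = 0.0015), with a log2 difference of 0.22 in PANC-1 and 1.30 in CFPAC-1. PANC-1 received 1 µM and CFPAC-1 10 µM IKE, so for both genes line and dose cannot be told apart. No sample stood far from the rest of the 4 PANC-1 IKE libraries by Dixon's ratio for any member, regulator or other pathway gene named by the rule.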

How the results depend on the processing

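The 1 member called in the difference of the responses (DDIT4), and the 8 members and 35 other pathway genes called between the lines, were within 1.5 times these counts under every alternative run. The 2 members called in PANC-1 became 1 with a pseudocount of 0.1, 1 with no filter, 1 with PANC-1 IKE replicates 1 and 2 alone and 0 with a fit per line, and 0 to 2 with 1 library left out. The 2 pathway genes called in PANC-1 became 1 with no filter, 1 with quantile normalization, 1 with a fit per line and 1 with PANC-1 IKE replicates 1 and 2 alone, and 0 to 2 with 1 library left out. In CFPAC-1 the 2 members and the 2 pathway genes became 1 to 2 with 1 library left out. MITF was also called in CFPAC-1, lower at -0.47, with a fit per line (adjusted p = 0.0471), with PANC-1 IKE replicates 1 and 2 alone (0.0451) and with 3 and 4 alone (0.0372). In the difference of the responses, 0 pathway genes became 1 (SAR1B) with at least 5 FPKM in 2 libraries, 1 (SAR1B) with median-ratio scaling and 2 (SAR1B and MITF) with PANC-1 IKE replicates 3 and 4 alone. The cause was not tested, other than fewer libraries or other genes tested where the alternative itself makes them.

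The DDIT4 fall in PANC-1 was -0.49 (adjusted p = 0.0506) with a pseudocount of 0.1, and had an adjusted p of 0.0983 with no filter, 0.074 with a fit per line and 0.141 with PANC-1 IKE replicates 1 and 2 alone. DEPTOR in PANC-1 had an adjusted p of 0.0719 with a fit per line and 0.0519 with those replicates alone, where SESN2 was called at 0.58 (adjusted p = 0.0248). SAR1B was called in neither setting (adjusted p = 0.0929 and 0.159). No called value changed sign (limma throughout).

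The correlation of replicate 1 minus replicate 2 between groups was 0.004 to 0.094 over 8163 genes, so no strong shift shared by replicate number was seen. This cannot show whether replicates of the same number were handled together, which the labels do not say. With the replicate number as a block, 1 member was called in PANC-1, SESN2 at 0.58 (adjusted p = 0.0372, limma). DDIT4 (-0.33, adjusted p = 0.134) and DEPTOR (-0.44, adjusted p = 0.0785) were not, and 1 pathway gene was called there. Replicates 3 and 4 exist only in PANC-1 with IKE, so the block takes them out of the PANC-1 comparison. The block therefore gives the same PANC-1 log2 differences as replicates 1 and 2 alone and is no separate check of them. Over all genes the block gave 96 higher and 53 lower in PANC-1, against 158 and 153 without it, and 87 and 32 in CFPAC-1, against 113 and 60. Of all genes, 145 and 164 in PANC-1 and 160 and 102 in CFPAC-1 were higher and lower with quantile normalization, 109 and 80 in PANC-1 and 136 and 97 in CFPAC-1 with a fit per line, 106 and 66 in PANC-1 with its IKE replicates 1 and 2 alone, and 197 and 274 with 3 and 4 alone. Leaving out PANC-1 DMSO replicate 1 gave 35 and 7 in PANC-1, PANC-1 DMSO replicate 2 gave 50 and 25, and CFPAC-1 DMSO replicate 2 gave 64 and 16 in CFPAC-1. Depth, which is unknown, limits what can be said of SESN3 and CASTOR1.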
